A study of Mus musculus with 6 samples.

Results

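The 10 genes described here encode the core of mTORC1, the kinase complex that couples nutrient supply to growth, and the small GTPases and GTPase regulators that switch it on and off. They are Rraga, Rragc and Rragd (Rag GTPases), Rheb, Tsc1 and Tsc2 (the second GTPase of the pathway and its inhibitor), and Mtor, Rptor, Mlst8 and Deptor (the kinase complex). They were taken by gene symbol from the deposited expression values, where all 10 were found among 24346 symbols. The set was chosen by pathway membership with the FPKM of these IgM and IgG1 libraries in view, so the values of its genes are given as a description, with no test of any of them. RNA was sequenced from mouse splenic plasma cells in 6 libraries, 3 of IgM plasma cells and 3 of IgG1 plasma cells. Both groups descend from congenically marked B1-8germ B cells, which carry a heavy chain that, with a lambda light chain, recognises the hapten NP, so both started from the same heavy chain. These cells had been transferred into wild-type C57BL/6J hosts that received NP-CGG in alum, and donor plasma cells were sorted from the spleen at day 7. The labels give no age or sex of the animals and leave unsaid whether cells were pooled or each library had its own animal, so any p-value reflects library-to-library spread that may in part be technical. Values are FPKM (fragment counts scaled to transcript length and library depth), given as mean ± SD with n = 3 libraries per group. Log2 fold changes are differences of log2(FPKM + 1), IgG1 minus IgM, with the standard error (SE) of the limma fit, and they understate the change of low genes.

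When amino acids are plentiful, a heterodimer of RagA or RagB with RagC or RagD binds raptor, the product of Rptor, and brings mTORC1 to the lysosome. There Rheb, in its GTP-bound form, activates the kinase. The TSC complex, built on the products of Tsc1 and Tsc2, holds Rheb in its inactive form when growth signals or energy are short. In plasma cells, whose main work is the synthesis and secretion of antibody, mTORC1 is known as a driver of protein synthesis. The values below are transcript levels and carry no information on the activity of the complex.

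The promoters of 4 members whose levels did not overlap between the groups, Rraga, Mtor and Rptor with lower and Mlst8 with higher levels in IgG1 libraries, are shown first. Rheb, whose group ranges nearly touched, is left out. Of all genes tested, 27.2% had group ranges that did not overlap, 13.5% lower and 13.7% higher in IgG1 libraries. The log2 fold changes of Mtor and Rptor were not extreme, ranking 860th and 1198th from the most negative of the 9087 genes tested. Each promoter is the 250 bases before the gene's start in RefSeq (GRCm38.p6), 5′ to 3′ on the gene's strand. Capitals mark matches on either strand to the searched motifs.
Rraga: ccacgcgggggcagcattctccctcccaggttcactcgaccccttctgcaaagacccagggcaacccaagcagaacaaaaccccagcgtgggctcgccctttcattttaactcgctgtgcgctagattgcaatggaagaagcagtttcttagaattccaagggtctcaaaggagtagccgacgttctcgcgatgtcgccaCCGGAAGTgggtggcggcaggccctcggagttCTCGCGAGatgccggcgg
Mtor: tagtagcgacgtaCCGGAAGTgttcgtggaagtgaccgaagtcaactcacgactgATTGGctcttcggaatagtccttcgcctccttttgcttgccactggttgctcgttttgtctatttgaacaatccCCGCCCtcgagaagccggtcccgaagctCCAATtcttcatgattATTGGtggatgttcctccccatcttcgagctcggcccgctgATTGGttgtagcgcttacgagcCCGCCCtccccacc
Rptor: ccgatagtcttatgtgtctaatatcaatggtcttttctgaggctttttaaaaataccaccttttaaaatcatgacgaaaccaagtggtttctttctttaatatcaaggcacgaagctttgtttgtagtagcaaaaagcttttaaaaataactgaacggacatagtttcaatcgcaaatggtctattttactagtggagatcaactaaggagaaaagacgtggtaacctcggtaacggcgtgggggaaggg
Mlst8: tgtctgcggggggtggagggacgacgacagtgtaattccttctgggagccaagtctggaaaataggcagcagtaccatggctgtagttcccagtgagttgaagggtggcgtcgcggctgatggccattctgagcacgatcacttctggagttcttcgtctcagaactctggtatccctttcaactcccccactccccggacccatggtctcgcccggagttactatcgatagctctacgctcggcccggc
The Rraga window, chr4:86575423-86575672 on the plus strand, held a CCGGAAGT match (the core recognised by ETS factors) 50 bases before the start and the palindrome CTCGCGAG 18 bases before it. The Mtor window, chr4:148448332-148448581 on the plus strand, held CCGGAAGT once, CCAAT at 4 places and GGGCGG at 2. The Rptor window (chr11:119602655-119602904, plus strand) and the Mlst8 window (chr17:24479079-24479328, minus strand) held none of the motifs searched. Besides these 4 motifs the search covered the E-box CACGTG and the cyclic AMP response element TGACGTCA, and no 2 matches overlapped in these windows. Of 32851 RefSeq promoter windows of this length, 2.9% held CCGGAAGT, 0.8% CTCGCGAG, 33.8% CCAAT, 32.7% GGGCGG, 6.0% CACGTG and 1.5% TGACGTCA. CCGGAAGT and CTCGCGAG were added to the search after the sequences had been read. CACGTG, the E-box bound by TFEB and MYC, was found in the windows of Rragc, 112 bases before the start, and Rheb, 96 bases before the start. Among the members not shown, the window of Tsc2, a gene whose levels overlapped between the groups, also held CCGGAAGT, 8 bases before the start. Windows were found for 9 of the 10 members, and these matches are descriptions of letters, not of bound sites.

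The libraries held the transcripts of the labelled cell type. All 7 plasma cell markers (Sdc1, Xbp1, Prdm1, Irf4, Jchain, Mzb1, Tnfrsf17) reached an FPKM of 1 in all 6 libraries, with a summed level of 44125 to 50008 in IgM and 36681 to 39225 in IgG1 libraries. In IgG1 libraries 4 of the 7 lay below every IgM library (Prdm1, Irf4, Jchain, Tnfrsf17), Xbp1 lay above, and Sdc1 and Mzb1 overlapped. Tnfrsf17, the receptor BCMA, was at 568, 713 and 587 FPKM in IgM libraries 1 to 3 and at 67.4, 81.2 and 97.0 in IgG1 libraries 1 to 3. Jchain, which joins IgM into pentamers, was at 24812 to 28583 in IgM and 14208 to 16962 in IgG1 libraries. Of 6 B cell markers, 2 reached an FPKM of 1 in all 6 libraries (Ms4a1, Bank1), Pax5 was listed at 0 throughout, and the summed level was 72.6 to 84.9 for IgM and 55.3 to 87.2 for IgG1 libraries. Of 7 T cell markers and 4 erythroid markers, 0 did, with summed levels of at most 7.29 and 2.80 FPKM. Of 7 myeloid markers 1 did, Cd68, which made up most of a summed level of 64.2 to 69.2 in IgM libraries and 34.5 to 45.7 in IgG1 libraries. For 2 of the 7, Cd68 and Csf1r, every IgG1 library lay below every IgM library, and for 0 above. Csf1r was at 2.14, 1.11 and 1.56 FPKM in IgM libraries and 0, 0 and 0.02 in IgG1 libraries 1 to 3. Lyz2 overlapped, at 4.89, 4.77 and 8.44 in IgM libraries and 5.07, 0.16 and 0.31 in IgG1 libraries 1 to 3. S100a8 and S100a9 were listed at 0 throughout. The part of these differences in the results was not tested. Depth was estimated, from the smallest step of low values, at 14900000 to 17100000 fragments per library.

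Rraga, which encodes RagA, had the largest difference among the members. Its FPKM was 88.3, 67.1 and 72.9 in IgM libraries 1 to 3 and 26.3, 19.3 and 15.3 in IgG1 libraries 1 to 3. Every IgG1 library lay below every IgM library, and the group ranges were far apart. The mean level was 3.75-fold lower in IgG1, at 20.3 ± 5.58 against 76.1 ± 11.0, and the log2 fold change was -1.88 (SE 0.22). This was the 31st most negative value of the 9087 genes tested. Rraga lies on chromosome 4 from 86575668 to 86577285 in GRCm38, with 1 annotated transcript of 1618 nt in 1 exon, and its levels correspond to about 1726 to 2272 fragments per IgM library and 368 to 634 per IgG1 library. Its log2 fold change stayed between -2.08 and -1.70 when any 1 library was left out. In bulk RNA, fewer cells with the transcript and less of it per cell cannot be told apart.

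Rragc, which encodes RagC, the partner of RagA in the heterodimer, had levels that overlapped between the groups. Its FPKM was 44.0, 29.9 and 31.8 in IgM libraries 1 to 3 and 20.6, 37.8 and 22.1 in IgG1 libraries 1 to 3. IgG1 library 2 lay above 2 of the IgM libraries, and the other two IgG1 libraries lay below all of them. The log2 fold change was -0.41 (SE 0.26), with means of 26.8 ± 9.55 in IgG1 and 35.2 ± 7.64 in IgM. Rragc lies on chromosome 4 from 123917446 to 123936997, and 264 exonic bases are shared with a gene on the opposite strand, 4930535I16Rik. Rragd, the other possible partner of RagA, was listed at 0, 0.68 and 0.01 in IgM libraries 1 to 3 and at 0, 0.14 and 0 in IgG1 libraries 1 to 3. It did not reach the test's minimum, an FPKM of 1 in 3 or more libraries. Rragb, which encodes RagB, the close relative of RagA, was listed at 0 in 5 libraries and at 0.88 in IgG1 library 1.

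Since FPKM is scaled to transcript length, members can be set against each other within a library, and such a ratio is not touched by how libraries were scaled. Between genes of unlike length, a ratio still carries the trend of fold change with transcript length described below. The ratio of Rraga to Rragc was 2.01, 2.24 and 2.29 in IgM libraries 1 to 3 and 1.28, 0.51 and 0.69 in IgG1 libraries 1 to 3. Rraga was thus the more abundant of the pair in all 3 IgM libraries and in IgG1 library 1, and the less abundant in IgG1 libraries 2 and 3. The ratio of Rraga to Rheb was 1.32, 1.28 and 1.38 in IgM libraries and 0.53, 0.37 and 0.30 in IgG1 libraries 1 to 3. Neither ratio overlapped between the groups, and Rraga, above Rheb in each IgM library, was below it in each IgG1 library.

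**Figure D1:**
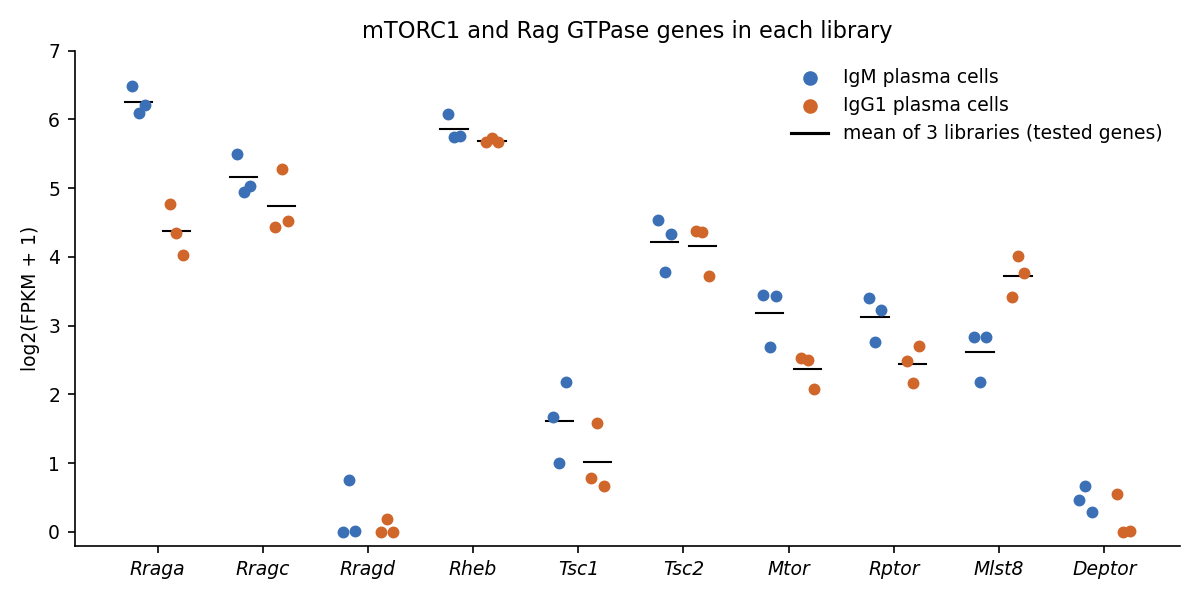
Level of the 10 members in each library, as log2(FPKM + 1) on the vertical axis, with 1 point per library (blue, IgM; orange, IgG1) and a bar at the mean of 3 libraries for the 8 that passed the minimum. Rraga stands lower in all 3 IgG1 libraries (15.3 to 26.3 FPKM) than in all 3 IgM libraries (67.1 to 88.3 FPKM), Mlst8 stands higher, and Rragd and Deptor lie near 0.

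Mtor, the kinase itself, and Rptor, its substrate-recruiting partner, had similar levels and similar differences. The FPKM of Mtor was 9.87, 5.45 and 9.78 in IgM libraries 1 to 3 and 4.76, 4.66 and 3.24 in the IgG1 libraries in the same order. That of Rptor was 9.59, 5.75 and 8.40 in IgM libraries and 4.58, 3.49 and 5.51 in IgG1 libraries 1 to 3. For both genes the group ranges did not overlap, but IgM library 2 lay close to the highest IgG1 library. The log2 fold change was -0.82 (SE 0.38) for Mtor, with means of 4.22 ± 0.85 in IgG1 and 8.37 ± 2.53 in IgM. It was -0.68 (SE 0.37) for Rptor, with means of 4.52 ± 1.01 and 7.92 ± 1.96. The ratio of Mtor to Rptor was 0.95 to 1.16 in IgM libraries and 0.59 to 1.34 in IgG1 libraries, so the groups overlapped and the mean ratios, 1.05 ± 0.11 and 0.99 ± 0.38, were close to 1.

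Mlst8, the small WD-repeat subunit bound to the kinase domain in both mTOR complexes, went the other way. Its FPKM was 6.16, 3.55 and 6.13 in IgM libraries and 9.67, 15.1 and 12.6 in IgG1 libraries 1 to 3. Every IgG1 library lay above every IgM library. The mean was 2.36-fold higher in IgG1, at 12.5 ± 2.73 against 5.28 ± 1.50, and the log2 fold change of 1.11 (SE 0.35) was the 181st most positive of the genes tested. Mlst8 lies on chromosome 17 from 24473551 to 24479078, and 997 of its exonic bases are shared with Bricd5 on the opposite strand. Whether counting used strand is not given in the sources used here, so reads from this stretch cannot be told apart, and Bricd5 itself was listed at 0.63 to 1.37 FPKM in IgM libraries and 1.58 to 2.60 in IgG1 libraries.

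The level of Mlst8 relative to the kinase did not overlap between the groups. The ratio of Mlst8 to Mtor was 0.62, 0.65 and 0.63 in IgM libraries 1 to 3 and 2.03, 3.25 and 3.88 in IgG1 libraries 1 to 3. The 3 IgM libraries had nearly the same ratio although their Mtor levels ranged from 5.45 to 9.87 FPKM. The ratio of Mlst8 to Rptor was likewise 0.62 to 0.73 in IgM libraries and 2.11 to 4.34 in IgG1 libraries. Deptor, an inhibitory subunit, was listed at 0.39, 0.59 and 0.23 FPKM in IgM libraries and at 0.47, 0 and 0.01 in IgG1 libraries 1 to 3, below the test's minimum.

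**Figure D2:**
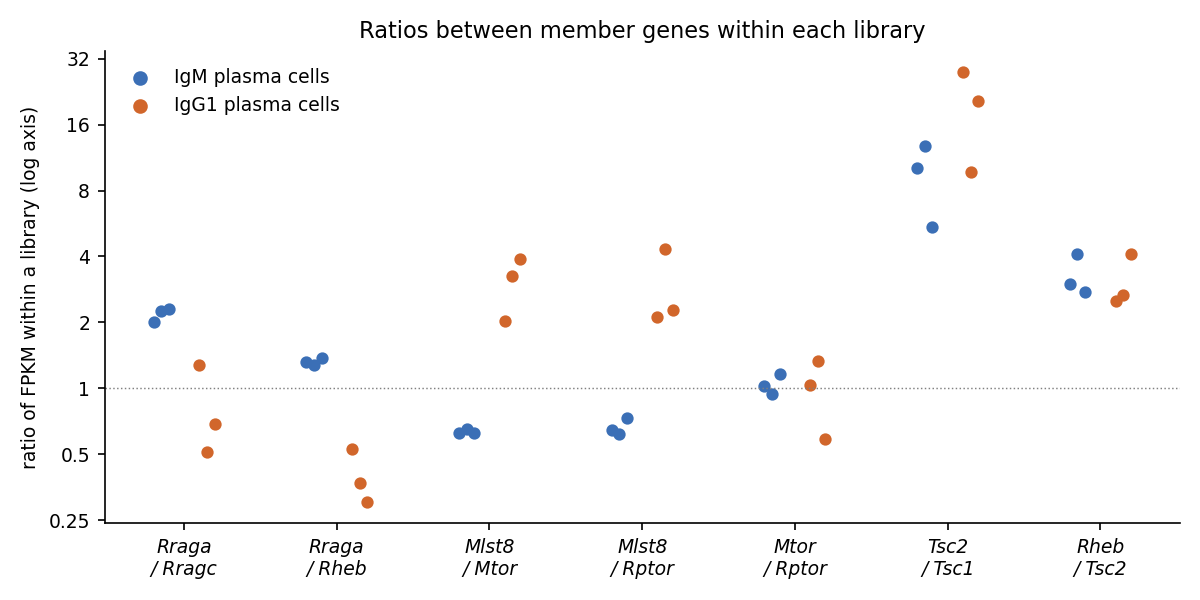
Ratios of the FPKM of 2 members within a library, on a log axis, with 1 point per library (blue, IgM; orange, IgG1). The ratios of Rraga to Rragc and to Rheb lie lower and those of Mlst8 to Mtor and to Rptor lie higher in all 3 IgG1 libraries than in all 3 IgM libraries, while the ratios of Mtor to Rptor, Tsc2 to Tsc1 and Rheb to Tsc2 overlap.

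Rheb, the direct activator of the kinase, was the most even of the abundant members. Its FPKM was 66.7, 52.4 and 53.0 in IgM libraries and 49.9, 52.2 and 50.2 in IgG1 libraries 1 to 3. The ranges did not overlap, but the lowest IgM library and the highest IgG1 library were 52.4 and 52.2, a gap smaller than the SD of either group (8.11 and 1.22), and the log2 fold change was -0.16 (SE 0.17). Tsc2, the subunit that acts on Rheb, had an FPKM of 22.3, 12.8 and 19.3 in IgM libraries and 19.9, 19.6 and 12.3 in IgG1 libraries 1 to 3, with each group holding 1 low library and a log2 fold change of -0.06 (SE 0.29). Tsc1, its stabilising partner, was low, at 2.19, 1.00 and 3.52 in IgM libraries and 0.72, 2.01 and 0.60 in IgG1 libraries 1 to 3. The groups overlapped, and the log2 fold change was -0.60 (SE 0.48). Tsc2 exceeded Tsc1 in every library, 5.47 to 12.8 times in IgM libraries and 9.75 to 27.7 times in IgG1, and Rheb exceeded Tsc2 2.75 to 4.11 times in IgM libraries and 2.51 to 4.10 times in IgG1. Tsc2 shares 693 exonic bases with Pkd1 on the opposite strand, which was at 0.86 to 3.83 FPKM.

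In order of mean level over the 6 libraries the members ran Rheb, Rraga, Rragc, Tsc2, Mlst8, Mtor, Rptor and Tsc1, with Deptor and Rragd last. Among the tested genes they ranked from 1889th (Rheb) to 8394th (Tsc1). In IgM libraries Rraga stood first, above Rheb in each library, and Mlst8 stood below Mtor and Rptor on average. Neighbours such as Mtor and Rptor in IgM did not differ beyond their SDs. In IgG1 libraries Rheb stood first, Rraga overlapped with Rragc and Tsc2, and Mlst8 was above Mtor and Rptor.

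Of the 10 members 8 passed the minimum on FPKM. The group ranges did not overlap for 5 of the 8, 1 above and 4 below in IgG1, beside 27.2% of all 9087 genes that passed (13.7% above and 13.5% below). The members' median log2 fold change was -0.51, with 1 positive and 7 negative, beside a median of -0.05 over all genes tested. Because the members were proposed with this comparison in view, these counts are a description and nothing is read from them.

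Transcript length moved with the group in these libraries. Over the tested genes the median log2 fold change ran from 0.25 in the shortest quintile by transcript length to 0.05, -0.07, -0.17 and -0.32 in the longest. Mtor, Rptor, Tsc1 and Tsc2 belong to the longest quintile, Mlst8 to the next longest, Rragc to the middle one and Rraga and Rheb to the one after the shortest. Rraga (-1.88) lay below the median of its own quintile (0.05) and Mlst8 (1.11) above that of its own (-0.17). The part of transcript length in the members' differences was not tested. After the trend with length and GC content was taken out of each library, the log2 fold changes were -1.85 for Rraga, 1.20 for Mlst8, -0.65 for Mtor, -0.50 for Rptor, -0.29 for Tsc1, -0.23 for Rragc, -0.07 for Rheb and 0.13 for Tsc2.

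**Figure D3:**
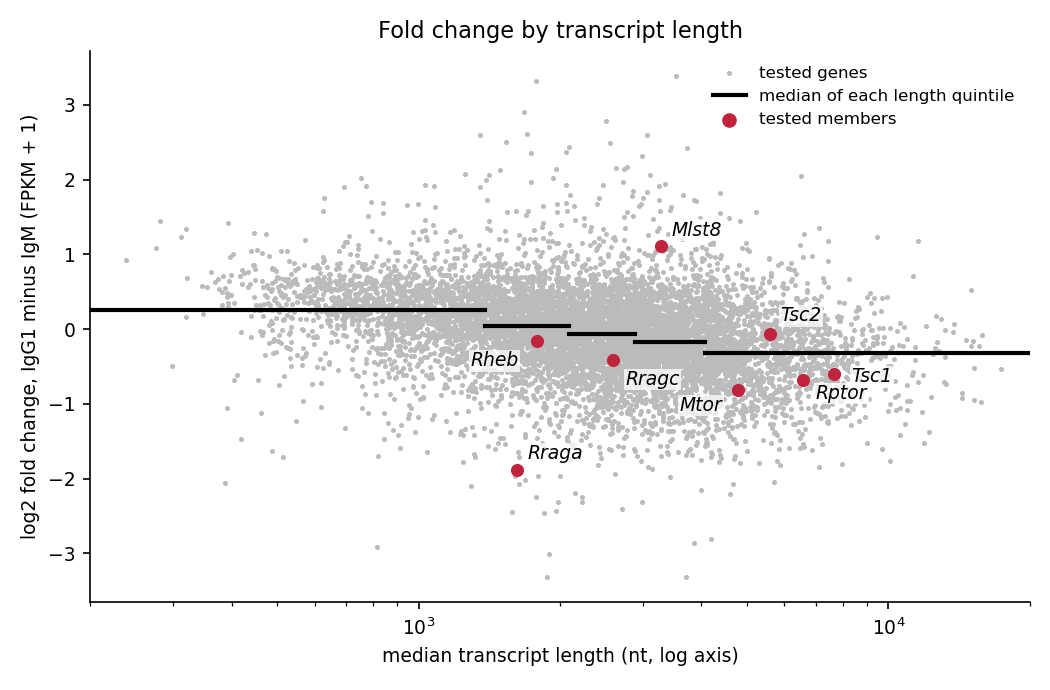
Log2 fold change (IgG1 minus IgM, FPKM + 1) against median transcript length in nt (log axis) for the tested genes (grey) and the 8 members that passed the minimum (red), with black lines at the median of each length quintile. The medians run from 0.25 in the shortest to -0.32 in the longest quintile, with Rraga at -1.88 and Mlst8 at 1.11 away from the lines.

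The genes around the members were taken from 6 lists, of which 62 genes are reported. Symbols were found for 61, 49 were tested with limma over all genes, and 2 were higher and 0 lower in IgG1 at an adjusted p under 0.05, where 6.02% of all 9087 genes tested were called (4.26% higher and 1.76% lower). At an unadjusted p under 0.05, 4 of the 49 were higher and 5 lower, beside 11.9% higher and 10.2% lower of all genes tested. The lists' median log2 fold change was 0.01 beside -0.05. The genes called were Lamtor5, 1.41-fold higher in IgG1, and Rps6, 1.36-fold higher.

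Among Rag anchors and nucleotide regulators, 1 of 7 tested genes was higher and 0 lower, beside 4.26% and 1.76% of all genes tested. The list's median log2 fold change was 0.30, beside -0.05 over all genes tested. At an unadjusted p under 0.05, 2 were higher, Lamtor1 and Lamtor5, and 0 lower, beside 11.9% and 10.2% of all genes. Transcripts of Lamtor1 to Lamtor5 are 618 to 1014 nt long, in the shortest quintile. In that quintile the median was 0.25, and 14.4% of genes were called higher and 0.57% lower. Lamtor1 was at 93.0 FPKM in IgG1 and 54.7 in IgM (log2 fold change 0.70, SE 0.22, limma adjusted p = 0.0843), with every IgG1 library above every IgM library. Lamtor5, a subunit of the Ragulator complex that tethers the Rag GTPases to the lysosome, rose from 181, 173 and 165 FPKM in IgM libraries 1 to 3 to 238, 234 and 261 in IgG1 libraries 1 to 3. The 2 groups lay clearly apart (log2 fold change 0.49, SE 0.12, limma adjusted p = 0.0299). Its transcript is 812 nt long, and with the length and GC trend removed its log2 fold change was 0.35 (adjusted p = 0.122). It was 0.26 with libraries rescaled without Jchain (adjusted p = 0.172) and 0.32 after quantile normalization (adjusted p = 0.118). Without IgM library 1, 2 or 3 or IgG1 library 2 or 3 the adjusted p was 0.0987, 0.067, 0.131, 0.0682 and 0.0829, and without IgG1 library 1 it was 0.0448. The most abundant of these genes, Lamtor2, was at 321 FPKM in IgG1 and 312 in IgM (0.04, SE 0.12, adjusted p = 0.879). With the length and GC trend removed the log2 fold change of Lamtor2 was -0.36 (adjusted p = 0.144). The ratio of Rraga to Lamtor2 was 0.30, 0.19 and 0.26 in IgM libraries and 0.07, 0.06 and 0.05 in IgG1 libraries 1 to 3, so RagA transcripts were lower relative to those of their anchor in each IgG1 library.

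Upstream of the Rag GTPases, the limma test called 0 of 9 GATOR1, GATOR2 and KICSTOR genes, the regulators that relay amino acid shortage to RagA (1 higher, Nprl2, and 2 lower, Mios and Itfg2, at an unadjusted p under 0.05, beside 11.9% and 10.2% of all genes). Sec13, shared with the COPII coat, was at 708 FPKM in IgG1 and 638 in IgM (log2 fold change 0.15, SE 0.11, adjusted p = 0.472). Nprl2, a subunit of GATOR1, which switches RagA off, was at 53.1 and 35.2 (0.55, SE 0.21, adjusted p = 0.145). Of 4 tested amino acid sensor genes 0 were called (0 higher and 1 lower, Lars1, at an unadjusted p under 0.05, beside 11.9% and 10.2% of all genes). Lars1, listed as Lars, the leucyl-tRNA synthetase, was at 27.3 ± 11.4 in IgG1 and 51.3 ± 9.61 in IgM (-0.97, SE 0.30, adjusted p = 0.0785). It passed the threshold in 2 of 16 alternatives, without IgG1 library 1 (adjusted p = 0.0395) and with libraries rescaled without Jchain (adjusted p = 0.0424). With the length and GC trend removed its log2 fold change was -0.655 (adjusted p = 0.216), and without IgM library 3 the adjusted p was 0.253. Sesn1, a sestrin, was at 7.88 and 8.13 (0.00, SE 0.38, adjusted p = 0.997).

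Among the inputs from growth factors and energy and the neighbours of TSC and Rheb, the limma test called 0 of 11 tested genes (0 higher and 1 lower, Pdpk1, at an unadjusted p under 0.05, beside 11.9% and 10.2% of all genes). Pdpk1, the kinase that phosphorylates AKT and S6 kinase, was at 10.1, 5.73 and 7.24 FPKM in IgM libraries 1 to 3 and at 2.00, 1.10 and 3.09 in IgG1 libraries 1 to 3. Every IgG1 library lay below every IgM library (log2 fold change -1.53, SE 0.42, adjusted p = 0.0537), and it passed the threshold with a pseudocount of 5 (-0.84, adjusted p = 0.0395) and with libraries rescaled without Jchain (-1.71, adjusted p = 0.0362). Akt2, a kinase that inhibits the TSC complex, was at 31.1 FPKM in IgG1 and 30.0 in IgM (0.05, adjusted p = 0.922), and Tbc1d7, the smallest subunit of that complex, at 24.7 and 28.7 (-0.34, adjusted p = 0.621).

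Downstream, 1 of 15 tested substrates and effectors was higher and 0 lower, beside 4.26% and 1.76% of all genes tested. At an unadjusted p under 0.05, 1 was higher, Rps6, and 1 lower, Pdcd4, beside 11.9% and 10.2% of all genes. Pdcd4 was at 4.72 FPKM in IgG1 and 10.4 in IgM (log2 fold change -1.06, SE 0.42, limma adjusted p = 0.160), and its groups overlapped. Rps6, the ribosomal protein phosphorylated by S6 kinase, rose from 717, 832 and 763 FPKM in IgM libraries 1 to 3 to 1025, 1017 and 1103 in IgG1 libraries 1 to 3 (log2 fold change 0.45, SE 0.10, limma adjusted p = 0.0257). Its transcript is 878 nt long, in the shortest quintile, where 14.4% of genes were called higher. Its log2 fold change was 0.29 with the length and GC trend removed (adjusted p = 0.0889). It was 0.21 with libraries rescaled without Jchain (adjusted p = 0.112) and 0.06 after quantile normalization (adjusted p = 0.694). Without IgM library 1 or 3 or IgG1 library 2 or 3 the adjusted p was 0.124, 0.108, 0.0721 and 0.0827. Maf1, a repressor of RNA polymerase III that mTORC1 phosphorylates, was at 104 FPKM in IgG1 and 117 in IgM (-0.17, adjusted p = 0.554). Of the 3 tested mTORC2-specific subunits limma called 0 (0 at an unadjusted p under 0.05), with Prr5 at 185 FPKM in IgG1 and 152 in IgM (0.28, adjusted p = 0.271) and Mapkap1 at 26.0 and 27.7 (-0.09, adjusted p = 0.843).

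**Figure D4:**
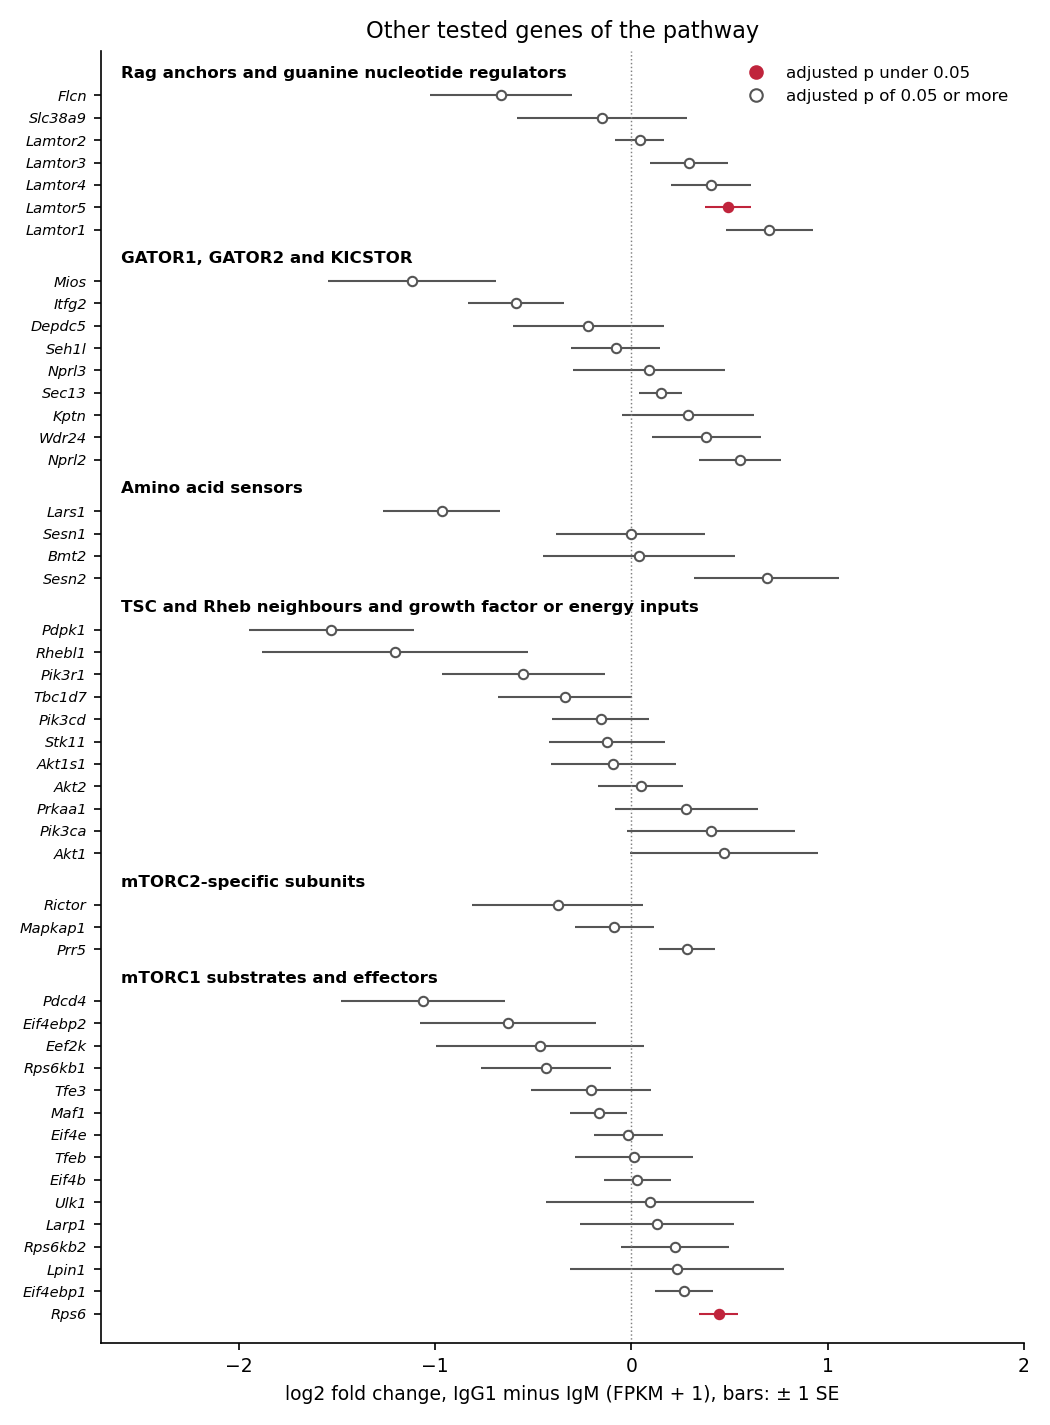
Log2 fold change (IgG1 minus IgM, FPKM + 1) with ± 1 SE for 49 tested pathway genes that are not members, by list, with genes past an adjusted p of 0.05 filled in red. Lamtor5 (0.49) and Rps6 (0.45) are the 2 filled points, and the others lie on both sides of 0.

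The genes whose levels over the 6 libraries were most like those of Rraga were Fam214a, Il13ra1 and Usp9x, out of 6633 candidates. Likeness was the root mean square difference of centred log2(FPKM + 1) values, which was 0.16, 0.19 and 0.21 for the 3 genes and 1.02 for the median candidate. Fam214a was at 102, 69.8 and 96.3 FPKM in IgM libraries and 36.1, 24.6 and 22.4 in IgG1 libraries 1 to 3.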

How the data were processed

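Per the labels' protocols, SMART-Seq HT cDNA of column-purified total RNA went into Nextera XT libraries. Per the submitters' processing notes the authors used build mm10 with Cufflinks 2.2.1, Cuffdiff, TopHat2 2.1.1 and Bowtie2 2.3.5.1. Neither the annotation nor how libraries were scaled to each other is given in the sources used here. What the authors deposited is FPKM, per the file headers, with 12159 to 13481 symbols listed at 0 per library. Because FPKM is relative to length and depth, library composition and uneven coverage of long transcripts move it.

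FPKM entered the fit as deposited. The test took genes that reached an FPKM of 1 in 3 or more libraries, on log2(FPKM + 1), with limma 3.58.1 in R 4.3.3 (lmFit, eBayes with an intensity trend) and Benjamini-Hochberg adjustment over all 9087 genes at a threshold of 0.05. The procedure was tested on simulated data. The members and lists were chosen with earlier results of these data known, so members carry no p-value and no count of members past the threshold is given. Named were all members, each list's genes past the threshold and its 2 tested genes with the highest mean. Lamtor2's ratio, Bricd5, Pkd1, Rragb, Lamtor1, Pdpk1, Pdcd4, Mios and Itfg2 were added after their values were seen. For the likeness to Rraga, predicted, Rik, Mir, Snor and LOC symbols and genes under a mean FPKM of 5 in the higher group were left out. The symbol of Kics2 was not matched. 2 further genes of the pathway lists and 2 of the markers are not reported here, and list counts and summed marker levels leave them out. Isotypes were taken from the labels and not checked, since Ighm and Ighg1 were not analysed here. Transcript length and GC content are medians over GENCODE vM21 basic transcripts (GRCm38, the assembly that mm10 names), found for 95.7% of symbols, and gene coordinates come from the same annotation. Fragment numbers used these lengths and are approximate. The 16 alternatives were leaving out each of 6 libraries, a replicate block, removal of the length and GC trend (natural splines per library), a fit with no intensity trend, quantile normalization, median centring, rescaling without Jchain, filters at 5 or none, and pseudocounts of 0.1 and 5. Rescaling without Jchain brought every library to the same summed FPKM over all symbols but Jchain.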

Additional observations from a re-analysis of the deposited data

How the results depend on the processing

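The log2 fold change of Rraga was negative in all 16 alternatives (-2.10 to -1.70). That of Mlst8 was positive in all 16 (0.76 to 1.27), and those of Mtor (-1.07 to -0.52) and Rptor (-0.88 to -0.43) were negative in all 16. Tsc2 kept its sign in 11 of 16. Over all genes, calls numbered 547 in the reported fit, 14 without a filter, 8 without the intensity trend and 260 with the length and GC trend removed. Leaving out a library gave 108 to 645 calls, with 108 without IgM library 1, 230 without IgM library 3, 174 without IgG1 library 2 and 200 without IgG1 library 3. Calls in the pathway lists, 2 in the reported fit, numbered 0 without a filter, after quantile normalization, without the intensity trend and with the length and GC trend removed, and 0 to 3 with a library left out. Genes higher in IgG1 made up 70.7% of calls as reported and 80.6% with median centring. That share was 31.1% when libraries were rescaled without Jchain, where the median over all genes was -0.25 and not -0.05, and 48.5% with quantile normalization. As deposited, summed FPKM was 730695 to 806599 in IgM libraries and 855123 to 914019 in IgG1 libraries, and that rescaling made the sums without Jchain equal. Jchain itself held 3.28 to 3.91% of the sum in IgM libraries and 1.55 to 1.93% in IgG1 libraries. The cause of the changes in the share was not tested. With libraries rescaled without Jchain the pathway calls were Pdpk1 and Lars1, both lower. With the replicate block there were 586 calls, 2 of them in the pathway lists. The labels do not state that replicate numbers pair libraries, so the numbers were not taken as pairs. Deviations of same-numbered libraries correlated at 0.10, -0.03 and 0.00 over genes, and those of unlike-numbered libraries at -0.10 to 0.10. With 3 libraries per group these values cannot show whether libraries were paired. Rragd and Deptor, listed at under 1 FPKM in every library, did not reach the test's minimum, so no difference is stated for them.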
